A study of Mus musculus with 11 samples.

Results

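The 42 collagen genes measured here were those whose mouse gene symbol has the form Col, a type number, a and a chain number, as in Col1a1, among 18193 genes with a platform symbol of their own on Affymetrix expression arrays. Each gene stands for 1 collagen chain, and the 42 chains belong to 26 collagen types encoded on 15 chromosomes. They were targeted by 82 probe sets, and for each of the 27 genes with several, the one with the highest 11-array mean was used. Col6a6, Col21a1 and Col28a1 were not analysed here. The groups were ViPSC (3 arrays), pluripotent cells induced from ventricular myocytes, TiPSC (3 arrays), pluripotent cells induced from fibroblasts of the tail tip, mouse embryonic stem cells (ESC, 3 arrays), ventricular myocytes from pups at postnatal day 1 (VM, 1 array) and tail tip fibroblasts from pups of that age (TTF, 1 array). The background of all 5 groups was mixed, C57/Bl and BlackSwiss. The 3 pluripotent groups grew in serum and LIF on irradiated embryonic fibroblast feeders, which were depleted by a plating step before RNA was taken. The labels give neither the reprogramming factors nor the number of clones, nor whether a group's arrays stand for separate cultures, so the p-values reflect only the spread among these samples, which may be technical.

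Collagens are secreted proteins built of 3 chains wound into a triple helix. Fibril-forming collagens (types I, II, III, V, XI, XXIV and XXVII) assemble into the fibrils of tendon, skin, bone and cartilage, and fibril-associated collagens decorate those fibrils. Type IV collagen forms the network of basement membranes, type VI forms beaded microfilaments around cells, and type VIII forms a short-chain network under endothelia and other cell layers. Fibroblasts are the main source of the fibrillar chains in connective tissue and heart, whereas early embryonic cells are known for depositing basement membrane.

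Expression is given on the log2 scale of RMA, a method that corrects background, normalizes between arrays and summarizes the probes of a probe set. A probe set's response to RNA differs between genes, so levels are set side by side only within a gene. The median of all genes was 5.96 to 6.08 on the 11 arrays and serves as a mark on the scale, since detection calls were not used here. The 6 pluripotency markers averaged 12.01 to 12.38 on the 9 pluripotent arrays, against 3.76 in VM and 3.83 in TTF. All 9 cardiac muscle markers were above the array median in VM, with a mean of 13.63 against 3.89 in TTF. The VM array also held all 8 endothelial markers (mean 10.21, against 4.0 in TTF) and 14 of 18 fibroblast markers (mean 8.19, against 11.69 in TTF) above its median. Correlations between arrays across genes, which are not independent replicates, were 0.998 within ViPSC, 0.993 to 0.997 within TiPSC and 0.984 to 0.993 within ESC. Precision is limited by the small number of arrays.

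Values above the array median were found for a part of the family. With the probe sets used, the same 14 genes lay above the array median on every array of ViPSC and of TiPSC: the fibrillar chains Col1a1, Col1a2, Col3a1, Col5a1, Col5a2 and Col27a1, the type IV chains Col4a1 and Col4a2, the type VI chains Col6a1, Col6a2 and Col6a3, and Col8a1, Col16a1 and Col18a1. In ESC 13 of these did, all but Col6a1, which was below the median on ESC 2. Those 13 of 42 were above it on all 9 pluripotent arrays, as were 8377 of all 18193 genes. VM had 16 genes above the median and TTF had 20, where the median of a single array by definition splits all genes evenly. By contrast, 20 of the 42 collagen genes were below the median on all 11 arrays, against 7072 of all 18193 genes (38.9%). These 20 included all 4 transmembrane collagens (Col13a1, Col17a1, Col23a1 and Col25a1), the 3 chains of type IX, Col10a1 of growth plate cartilage, the type IV chains Col4a3, Col4a4 and Col4a6, and Col26a1. These counts depend on the probe set. Col1a2, Col3a1, Col5a2, Col8a1 and Col27a1 each had an unused probe set below the median on every pluripotent array. Unused probe sets of Col1a1, Col1a2 and Col18a1 were above it on all of them. For Col9a1 an unused probe set was above the median in VM (6.41).

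**Figure D1:**
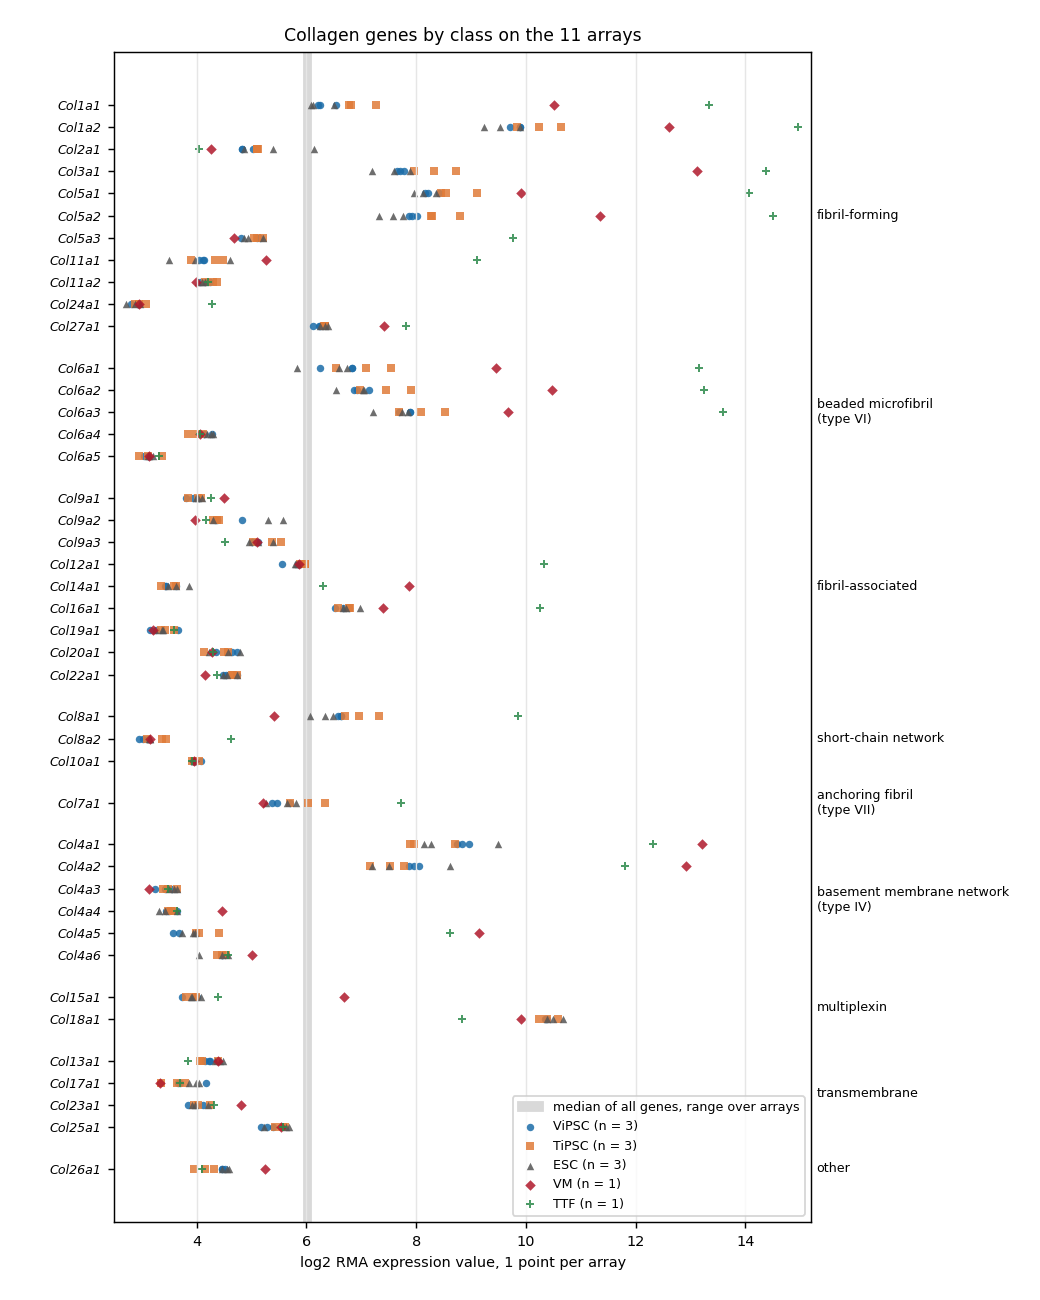
Log2 RMA value of each of the 42 collagen genes (rows, grouped by class) on each of the 11 arrays, with the grey band marking the range of the array medians of all genes. The TTF and VM points stand to the right of the pluripotent arrays for Col1a1, Col1a2, Col3a1, Col5a1, Col5a2, Col6a1, Col6a2, Col6a3, Col4a1, Col4a2 and Col4a5, while Col18a1 lies to the left in TTF.

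TiPSC arrays were set against the TTF array to ask how far the fibroblast's collagens were reduced in the reprogrammed cells. Of the 42 collagen genes, 17 were at least 2 log2 units lower on every TiPSC array than in TTF, and 0 were higher by that margin. Among all genes 6.01% were lower and 4.51% higher by the same measure, which is a description with no replicate check because TTF is 1 array. The median difference was -0.90 over the 42 collagen genes and 0.07 over all genes. In such bulk RNA, fewer cells that express a gene and less RNA per cell cannot be told apart.

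The largest of these differences were in the chains of fibrils and of type VI collagen. Col1a1, which makes the major chain of type I collagen, had log2 values of 7.26, 6.81 and 6.77 in TiPSC, against 13.33 in TTF. The difference of means, -6.38, corresponds to an 83.4-fold lower value. Col1a2, its partner chain, had 10.63, 10.23 and 9.84 in TiPSC, against 14.97 in TTF, a difference of -4.73. TTF was thus far above every TiPSC array for both chains of type I collagen. Col3a1, which makes the homotrimer of type III collagen found beside type I in skin and vessels, had 8.73, 8.33 and 7.96 in TiPSC, against 14.38 in TTF (-6.04, 65.8-fold lower).

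The chains of type V collagen, which nucleates type I fibrils, showed the same order of groups. Col5a1 had 9.10, 8.45 and 8.54 in TiPSC, against 14.06 in TTF (-5.36). Col5a2 had 8.80, 8.28 and 8.27 in TiPSC, against 14.50 in TTF (-6.05). Col5a3, another chain of the type, had 5.05, 5.10 and 5.21 in TiPSC, against 9.77 in TTF (-4.65). All TiPSC values of Col5a3 lay below the array median. Col11a1, a chain of the fibril-nucleating type XI collagen of cartilage, had 4.33, 4.48 and 3.89 in TiPSC, against 9.11 in TTF (-4.88), while its partner Col11a2 was at 4.16 to 4.37 in TiPSC and at 4.20 in TTF.

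In type VI collagen the 3 chains that form the classical heterotrimer were lower together. Col6a1 had 7.55, 7.09 and 6.55 in TiPSC, against 13.15 in TTF (-6.09, 68.0-fold lower). Col6a2 had 7.91, 7.45 and 6.98 in TiPSC, against 13.25 in TTF (-5.80). Col6a3 had 8.53, 8.09 and 7.68 in TiPSC, against 13.59 in TTF (-5.49). For all 3 chains TiPSC 1 was the highest and TiPSC 3 the lowest of the TiPSC arrays. The alternative chains Col6a4 and Col6a5 differed little, by -0.07 and -0.18, and lay below the array median on all 11 arrays.

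The other members of the 17 were Col4a1, Col4a2 and Col4a5 of basement membranes, Col8a1, and the fibril-associated Col12a1, Col14a1 and Col16a1. Col12a1, a chain that links fibrils in dense connective tissue, had 5.98, 5.87 and 5.98 in TiPSC, against 10.33 in TTF (-4.39). Col16a1 had 6.58, 6.79 and 6.77 in TiPSC, against 10.26 in TTF (-3.55). Fibroblast and feeder markers, measured on the same arrays, moved with these genes. Of 18 markers 17 were lower in TiPSC than in TTF by the same measure, against 6.01% of all genes. Their mean log2 value was 6.61, 6.24 and 6.09 in TiPSC against 11.69 in TTF. Their summed level on the linear scale was 4020, 3043 and 2586 against 121371. Thy1, Dcn and Postn, which help define the fibroblast, were at 6.26 ± 0.26, 5.48 ± 0.19 and 6.65 ± 0.45 in TiPSC (SD, n = 3) and at 12.36, 13.26 and 14.08 in TTF.

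In ViPSC against the VM array, 11 of 42 collagen genes were at least 2 log2 units lower on every ViPSC array and 0 were higher, against 6.76% and 6.44% of all genes. The median difference was -0.40 over the 42 genes and 0.04 over all genes. The 11 genes were Col1a1, Col1a2, Col3a1 and Col5a2 among the fibrillar chains, Col4a1, Col4a2 and Col4a5 of type IV, Col6a1 and Col6a2 of type VI, and Col14a1 and Col15a1. All but Col15a1 were also lower in TiPSC than in TTF: these 10 genes were 90.9% of the 11 and 58.8% of the 17, in comparisons that share no array. Among all genes, 424 were lower in both, 34.5% of the 1230 lower in ViPSC and 38.8% of the 1093 lower in TiPSC.

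Col3a1 had 7.70, 7.77 and 7.65 in ViPSC, against 13.12 in VM (-5.42, 42.8-fold lower). Col1a1 had 6.20, 6.54 and 6.25 in ViPSC, against 10.50 in VM (-4.18). Col1a2 had 9.72, 9.90 and 9.89 in ViPSC, against 12.61 in VM (-2.78). The 3 ViPSC arrays lay close together for each of these chains, and the VM array was well above them. Col5a2 had 7.86, 7.93 and 8.01 in ViPSC, against 11.35 in VM (-3.42). Col6a1 had 6.25, 6.83 and 6.83 in ViPSC, against 9.46 in VM (-2.82). Col6a2 had 6.86, 7.15 and 6.93 in ViPSC, against 10.48 in VM (-3.50). Col5a1 (-1.64) and Col6a3 (-1.86), their partner chains, were also lower but not by the full margin on every array.

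Col14a1, a fibril-associated chain of tissues under tension, had 3.62, 3.42 and 3.43 in ViPSC, against 7.88 in VM (-4.39, 20.9-fold lower). In TiPSC it had 3.35, 3.58 and 3.63, against 6.31 in TTF (-2.79). Neither of its other probe sets reached the margin, with -1.84 and -0.09 in ViPSC minus VM and -0.91 and 0.02 in TiPSC minus TTF. Col15a1, a multiplexin of basement membrane zones in muscle and vessels, had 4.0, 3.98 and 3.74 in ViPSC, against 6.69 in VM (-2.79). Its values were 3.80, 3.95 and 3.99 in TiPSC, against 4.38 in TTF, so that only VM stood apart for this gene. Col18a1, the other multiplexin and the precursor of endostatin, ran the other way. It had 10.35, 10.38 and 10.36 in ViPSC, against 9.91 in VM (0.46), and 10.39, 10.58 and 10.23 in TiPSC, against 8.84 in TTF (1.56). It had the largest positive difference of the 42 genes from TTF, below the margin of 2.

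**Figure D2:**
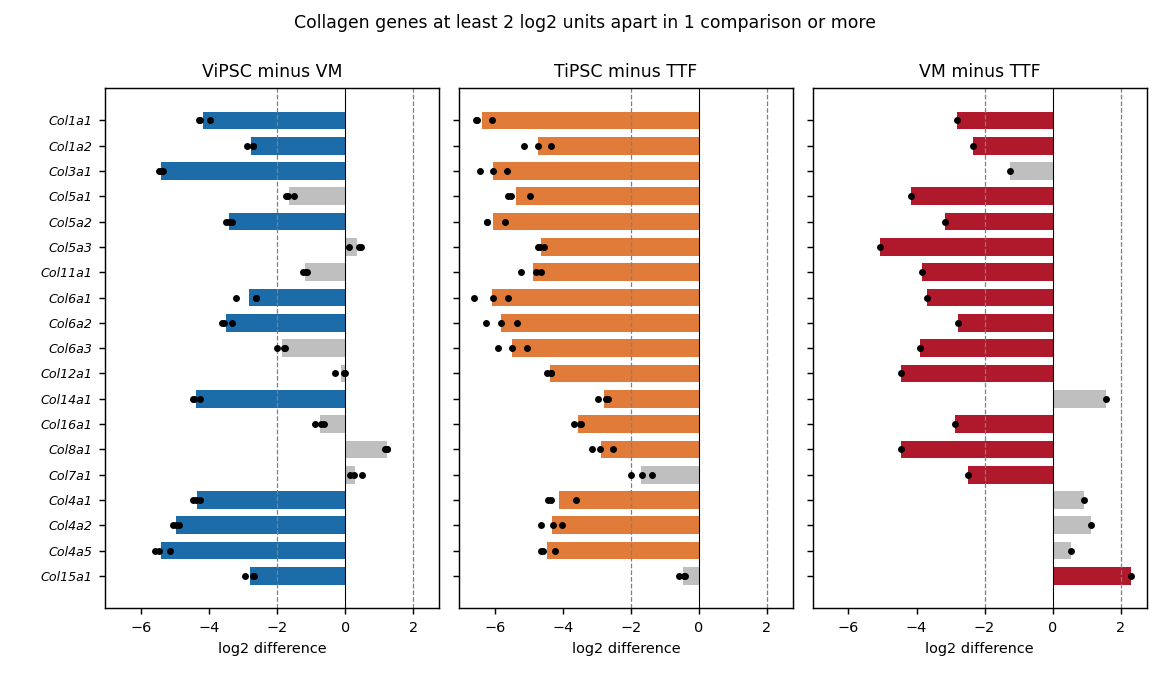
Log2 differences of the 19 collagen genes that reached 2 log2 units in at least 1 comparison, with bars for the difference of means, black points for single arrays and dashed lines at 2 units. Coloured bars mark genes at or beyond 2 units on every array, and grey bars the rest. Coloured bars point left throughout except for Col15a1 in VM minus TTF.

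The source cells differed from each other. In VM against TTF, 13 of 42 collagen genes were at least 2 log2 units lower and 1, Col15a1, was higher, against 4.62% and 4.68% of all genes. Here each side is 1 array. Col5a3 was at 4.69 in VM and 9.77 in TTF (-5.08). Col12a1 had 5.87 in VM and 10.33 in TTF (-4.46), and Col8a1, a chain of the short-chain network, at 5.40 in VM and 9.86 in TTF (-4.45). For the probe sets used for Col5a3, Col8a1 and Col12a1, the VM array was below its own median. Another Col12a1 probe set had 6.93 in VM, above that median, and 11.52 in TTF (-4.59). The remaining Col12a1 probe sets were below the median in both.

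Col5a1 was at 9.91 in VM and 14.06 in TTF (-4.15), Col5a2 at 11.35 and 14.50 in that order (-3.15), and Col11a1 at 5.27 and 9.11 (-3.84). Type VI was also lower in VM, with differences of -3.69 for Col6a1, -2.77 for Col6a2 and -3.91 for Col6a3, as was type I, with -2.82 for Col1a1 and -2.35 for Col1a2. Col7a1, which forms the anchoring fibrils of skin, had 5.21 in VM and 7.72 in TTF (-2.50), and Col16a1 at 7.39 and 10.26 (-2.87). Col3a1 was nearer, at 13.12 in VM and 14.38 in TTF (-1.26). On the VM array the 18 fibroblast markers had a summed linear level of 21676, against 121371 in TTF, with Postn at 12.39 and Dcn at 11.62 in VM and Thy1 at 5.55. The part of such cells in the VM values of the collagens was not tested.

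The comparisons of source cells share arrays: VM enters both ViPSC minus VM and VM minus TTF, and TTF enters both TiPSC minus TTF and VM minus TTF. For the probe sets used for Col5a3 and Col8a1, the values in the 2 comparisons of induced with source cells had opposite signs. For Col5a3, ViPSC minus VM was 0.34 between values that were all below the array median, and its other probe set gave -0.57 in ViPSC minus VM and -0.17 in TiPSC minus TTF. Col8a1 had 6.58, 6.64 and 6.64 in ViPSC, against 5.40 in VM (1.21), but 7.33, 6.95 and 6.70 in TiPSC, against 9.86 in TTF (-2.86). Of its other probe sets 1 gave 1.25 and -2.48 in the same comparisons and 1 gave -0.41 and -1.94. Col8a2, its partner chain, was below the array median on all 11 arrays.

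Other probe sets of the same genes gave 40 further measurements. Their call was that of the probe set used in 34 of 40 for ViPSC minus VM, 33 of 40 for TiPSC minus TTF and 34 of 40 for VM minus TTF, and in 0 it was the opposite one. These counts include pairs in which neither probe set was called, so they do not measure how often a called difference was repeated. Where the probe set used was called lower, another fell short for Col1a1, Col1a2 and Col14a1 in ViPSC minus VM. In TiPSC minus TTF this held for Col4a5, Col5a3, Col8a1, Col12a1 and Col14a1, and in VM minus TTF for Col5a3, Col8a1 and Col12a1. The other Col1a1 probe set had 6.55, 6.64 and 6.52 in ViPSC, against 8.57 in VM (-2.0), with 1 array short of the margin. For Col3a1 the other probe set had 7.50 in VM and 11.38 in TTF (-3.88), a larger gap than the -1.26 given above.

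Type IV collagen forms the scaffold of basement membranes. Its chains lie in pairs, head to head, on 3 chromosomes: Col4a1 with Col4a2 on chromosome 8, Col4a3 with Col4a4 on chromosome 1, and Col4a5 with Col4a6 on the X chromosome. Col4a1 and Col4a2, which together form the common network, were high in both source cells. Col4a1 had 8.74, 8.96 and 8.84 in ViPSC, against 13.21 in VM (-4.36), and 7.97, 7.88 and 8.71 in TiPSC, against 12.31 in TTF (-4.12). Col4a2 had 7.87, 7.96 and 8.05 in ViPSC, against 12.92 in VM (-4.96, 31.1-fold lower), and 7.52, 7.16 and 7.78 in TiPSC, against 11.81 in TTF (-4.33). Both genes were slightly higher in VM than in TTF, by 0.90 and 1.11, unlike Col1a1, Col1a2, Col3a1, the type V chains and the 3 classical chains of type VI.

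The pair on the X chromosome split. Col4a5 had 3.68, 3.99 and 3.58 in ViPSC, against 9.15 in VM (-5.40, 42.3-fold lower), and 4.40, 3.99 and 4.04 in TiPSC, against 8.62 in TTF (-4.48). It was below the array median on all 9 pluripotent arrays. The other Col4a5 probe set gave smaller differences, -2.62 in ViPSC minus VM and -2.02 in TiPSC minus TTF, the latter short of the margin on TiPSC 3. Col4a6, its neighbour, was at 4.46 ± 0.01 in ViPSC and 4.46 ± 0.09 in TiPSC (SD, n = 3), with VM at 5.00 and TTF at 4.58, and was below the median on every array. Col4a3 and Col4a4, the pair of the mature kidney filter, were below the median as well, with Col4a4 highest in VM (4.46).

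The windows of 250 bases upstream of the annotated starts of 4 genes are shown, to set the split pair on the X chromosome beside each other and beside 2 fibrillar genes. They come from RefSeq on GRCm38.p6, and 33 of the 42 genes matched an entry of that table. Capitals mark CCAAT (the box of that name), GGGCGG (known as the GC box) and the letters TATAAA of the classical core promoter element, searched on both strands, so a match on the opposite strand appears as its complement read backwards. No matches overlapped in these windows. The Col1a2 window is chr6:4505368-4505617 on the plus strand and the Col3a1 window is chr1:45311288-45311537 on the plus strand. The Col4a5 window is chrX:141475169-141475418, plus strand, and the Col4a6 window is chrX:141474077-141474326, minus strand.
Col1a2: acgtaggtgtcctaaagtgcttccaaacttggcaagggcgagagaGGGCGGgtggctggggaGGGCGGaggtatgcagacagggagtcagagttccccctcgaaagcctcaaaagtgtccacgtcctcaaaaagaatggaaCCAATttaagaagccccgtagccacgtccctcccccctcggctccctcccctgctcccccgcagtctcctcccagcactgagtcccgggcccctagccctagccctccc
Col3a1: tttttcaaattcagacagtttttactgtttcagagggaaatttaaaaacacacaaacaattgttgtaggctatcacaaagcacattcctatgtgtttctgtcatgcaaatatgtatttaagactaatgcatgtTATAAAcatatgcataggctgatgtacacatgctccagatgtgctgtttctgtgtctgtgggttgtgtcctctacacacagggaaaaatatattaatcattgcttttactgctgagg
Col4a5: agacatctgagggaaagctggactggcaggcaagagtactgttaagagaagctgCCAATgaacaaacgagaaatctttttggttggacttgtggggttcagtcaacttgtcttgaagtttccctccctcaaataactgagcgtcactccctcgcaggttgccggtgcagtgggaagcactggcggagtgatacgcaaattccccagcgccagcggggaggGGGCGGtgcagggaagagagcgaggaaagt
Col4a6: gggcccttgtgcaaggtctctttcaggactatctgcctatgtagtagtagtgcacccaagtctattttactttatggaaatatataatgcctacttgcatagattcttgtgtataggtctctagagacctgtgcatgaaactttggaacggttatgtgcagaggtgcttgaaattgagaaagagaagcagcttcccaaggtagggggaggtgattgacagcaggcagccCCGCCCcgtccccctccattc

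The annotated starts of Col4a1 and Col4a2 are 21 bases apart, with transcripts that overlap, so their upstream windows lie on opposite sides and are described without their letters. Those of Col4a5 and Col4a6 are 1343 bases apart. The Col4a1 window held 31 CpG dinucleotides at a GC content of 74.4%, with CCAAT and without GGGCGG. The Col4a2 window held 26 CpG at 73.6% GC, 1 CCAAT and 2 GC boxes. Col4a5 held 10 CpG with 1 CCAAT and 1 GC box, whereas Col4a6 held 3 CpG, 1 GC box and no CCAAT. Col1a2 held 11 CpG, 1 CCAAT and 2 GC boxes, and Col3a1 held 0 CpG at 35.2% GC with 1 TATAAA. Over the 36 windows of the 33 genes, 36.1% held CCAAT, 58.3% GGGCGG and 13.9% TATAAA, against 33.8%, 32.7% and 12.4% of all 32851 windows of that length in the table. A match describes the letters only.

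ViPSC, TiPSC and ESC were then compared to ask whether induced cells of either origin differ in collagen expression from each other and from embryonic stem cells. The 3 comparisons share arrays and 1 estimate of spread over the 9 arrays. With limma and Benjamini-Hochberg adjustment over 18193 genes, 1 collagen gene passed an adjusted p of 0.05 in 1 comparison: Col5a2 was higher in TiPSC than in ESC. In ViPSC against TiPSC 0 of 42 passed, against 5.63% of all genes, and 9 had an unadjusted p under 0.05, against 21.0% of all genes. In ViPSC against ESC 0 of 42 passed, against 2.14%, and 1 (Col5a2) had an unadjusted p under 0.05, against 17.2%. In TiPSC against ESC 1 of 42 passed, against 0.632% in either direction and 0.291% higher, and 14 had an unadjusted p under 0.05, against 18.1%. Without ESC 1, 4 of 42 passed in ViPSC against ESC and 8 in TiPSC against ESC, while 2519 and 3038 of all genes passed, against 390 and 115 with all 9 arrays.

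Col5a2 had 8.80, 8.28 and 8.27 in TiPSC, against 7.76, 7.32 and 7.57 in ESC. The TiPSC and ESC arrays did not overlap, and the difference was 0.90 ± 0.16 (SE; limma adjusted p = 0.0492). ViPSC, at 7.86, 7.93 and 8.01, lay between them, with ViPSC minus TiPSC at -0.52 ± 0.16 (adjusted p = 0.0995) and ViPSC minus ESC at 0.38 ± 0.16 (adjusted p = 0.262). The call is at the edge of the threshold. It was lost when any array but ESC 1 was left out (adjusted p = 0.0549 to 0.154), and without ESC 1 it stood at 1.01 with adjusted p = 0.0043. The other probe set of Col5a2 gave 0.31 for TiPSC minus ESC.

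The same order, TiPSC above ViPSC and ESC, was measured for other chains of fibrils and type VI without passing the test. Col1a1 had 7.26, 6.81 and 6.77 in TiPSC, 6.20, 6.54 and 6.25 in ViPSC and 6.50, 6.09 and 6.11 in ESC. The TiPSC arrays overlapped with neither group. ViPSC minus TiPSC was -0.62 ± 0.17 (SE, adjusted p = 0.0654) and TiPSC minus ESC 0.71 ± 0.17 (adjusted p = 0.0968). Col1a1 lies on chromosome 11, whose expressed genes were on the median 0.44 higher in ViPSC than in TiPSC. With that shift removed the difference was -1.06 with adjusted p = 0.0149. The shift was taken from genes with a mean of at least 7. Col1a1 was below that level, with means of 6.33 in ViPSC, 6.95 in TiPSC and 6.23 in ESC. This call thus rests on the value subtracted. Leaving out genes of low level (adjusted p = 0.0478), taking out each array's median (0.046) or fitting only the 6 arrays (0.0342) also put Col1a1 past the threshold. With single arrays left out, it passed only without ESC 1, and its adjusted p in ViPSC minus TiPSC was 0.0284 to 0.22. The other Col1a1 probe set gave -0.22 for ViPSC minus TiPSC and 0.35 for TiPSC minus ESC.

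Col3a1 had 7.70, 7.77 and 7.65 in ViPSC, against 8.73, 8.33 and 7.96 in TiPSC (-0.64 ± 0.21, adjusted p = 0.117), with no overlap. Its 7.59, 7.19 and 7.89 in ESC were also below every TiPSC value (0.78 ± 0.21 for TiPSC minus ESC, adjusted p = 0.123). Col5a1 differed by -0.43 ± 0.17 between ViPSC and TiPSC (adjusted p = 0.188) and by 0.55 ± 0.17 between TiPSC and ESC (adjusted p = 0.164). Col8a1 differed by -0.38 ± 0.16 (adjusted p = 0.214) and 0.70 ± 0.16 (adjusted p = 0.0929) in the same comparisons. With the probe sets used, TiPSC had the highest mean of the 3 groups for each of these genes. The other Col3a1 probe set gave -0.24 for ViPSC minus TiPSC and 0.14 for TiPSC minus ESC. Those of Col8a1 gave -0.24 and 0.49, and -0.09 and -0.21, the last with ESC above TiPSC. Those of Col5a1 gave -0.75 and 0.71, and -0.44 and 0.41. Those of Col1a2 gave -0.68 and 1.11, and -0.09 and 0.05, and that of Col6a2 gave -0.31 and 0.50. Col1a2, Col6a1, Col6a2 and Col6a3 had differences of -0.47 to -0.28 in ViPSC minus TiPSC and of 0.50 to 0.69 in TiPSC minus ESC, with adjusted p-values of 0.153 to 0.54. Leaving out TiPSC 1 moved several of these by over 1.5 times: ViPSC minus TiPSC was then -0.20 for Col1a2, -0.18 for Col6a1, -0.24 for Col6a2, -0.06 for Col6a3, -0.23 for Col5a1 and -0.21 for Col8a1. In TiPSC minus ESC the values without TiPSC 1 included 0.34 for Col6a2, 0.29 for Col6a3 and 0.35 for Col5a1. That of Col6a1, 0.67 with all arrays, was also lower without TiPSC 1.

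Over the 11 fibril-forming genes the median difference was -0.21 in ViPSC minus TiPSC, with 0 of 11 above zero, against -0.03 for all genes and 41.8% of them above zero. It was 0.21 in TiPSC minus ESC, with 10 of 11 above zero and Col2a1 the exception, against 0.03 and 56.7% for all genes. In ViPSC minus ESC it was 0.07, with 9 of 11 above zero, against -0.0034 and 49.2% for all genes. Arrays did not overlap for 13 collagen genes in ViPSC against TiPSC (4 higher and 9 lower, against 14.4% and 19.1% of all genes, 33.5% in all), for 6 in ViPSC against ESC (22.2%) and for 11 in TiPSC against ESC (15.8%).

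The leading array within a group was counted for these chains. TiPSC 1 was the highest TiPSC array for 8 of the 13 collagen genes above the median on all pluripotent arrays, namely Col1a1, Col1a2, Col3a1, Col5a1, Col5a2, Col6a2, Col6a3 and Col8a1, against 34.8% of all genes above the median. ViPSC 2 was the highest ViPSC array for 10 of 13, against 39.5%, whereas the ESC arrays were split, with ESC 1 highest for 7 of 13, against 48.0%, ESC 3 for 5, against 31.6%, and ESC 2 for 1, against 20.5%. The fibroblast and feeder markers had the same leading array in TiPSC. Their mean log2 value was 5.96, 6.01 and 6.10 in ViPSC, 6.61, 6.24 and 6.09 in TiPSC and 6.11, 5.95 and 6.18 in ESC, and their summed linear level was 2431 to 2608 in ViPSC, 2586 to 4020 in TiPSC and 2341 to 2737 in ESC. One of the 18 markers passed the test between ViPSC and TiPSC, against 5.63% of all genes. It was Snai2, a mesenchymal transcription factor, higher in ViPSC by 0.46 ± 0.11 (limma adjusted p = 0.048). That call was lost in 7 of the 9 fits without 1 array. In the comparisons of ViPSC and of TiPSC with ESC 0 passed, against 2.14% and 0.632% of all genes. Whether remaining feeder cells contribute to the collagen values was not tested.

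**Figure D3:**
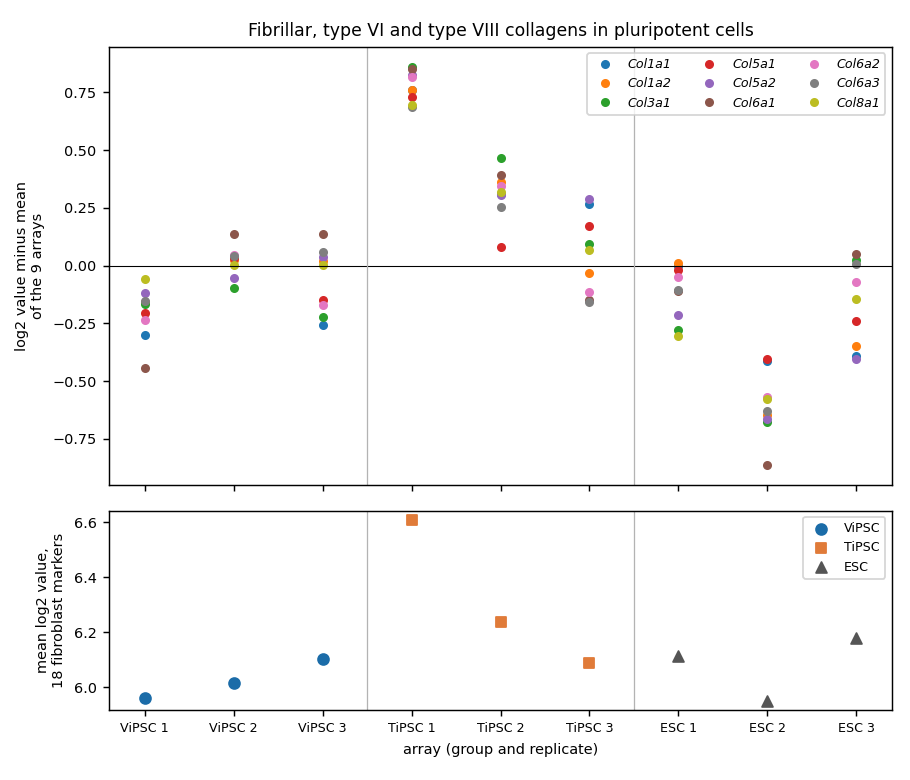
Upper panel, log2 value of 9 genes of types I, III, V, VI and VIII on each pluripotent array, relative to the gene's mean over the 9 arrays. Lower panel, mean log2 value of the 18 fibroblast and feeder markers on the same arrays. TiPSC 1 is the highest array for all 9 genes and, at 6.61, for the markers, and ESC 2 is the lowest array for both. The 9 genes were chosen after their values were seen, and Col27a1, a fibrillar chain outside them, was at 6.33 on each TiPSC array and highest on ESC 3 (6.39).

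Type IV collagen varied among pluripotent arrays in another order. Col4a1 had 8.74, 8.96 and 8.84 in ViPSC, 7.97, 7.88 and 8.71 in TiPSC and 9.48, 8.28 and 8.13 in ESC. Col4a2 had 7.87, 7.96 and 8.05 in ViPSC, 7.52, 7.16 and 7.78 in TiPSC and 8.62, 7.50 and 7.20 in ESC. For both genes ESC 1 was the highest of the 9 arrays, TiPSC 3 was the highest TiPSC array, and every ViPSC array was above every TiPSC array. ViPSC minus TiPSC was 0.66 ± 0.34 for Col4a1 (SE, adjusted p = 0.312) and 0.48 ± 0.32 for Col4a2 (adjusted p = 0.453).

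The 2 arrays that stood out also stood out in other measures. Extraembryonic endoderm markers, genes of a lineage known for making large amounts of type IV collagen, had a mean of 6.45 on ESC 1, against 4.64 to 4.74 on the other 8 pluripotent arrays, and a summed linear level of 1270, against 282 to 374. Of the 9 markers, Cubn was at 8.63 on ESC 1, Dab2 at 7.90 and Gata6 at 7.01, while Afp (4.66) and Ttr (5.08) were near their values elsewhere. On TiPSC 3 the expressed genes of chromosome 8, which carries Col4a1 and Col4a2, were on the median 0.47 above their mean over the 9 arrays, against -0.15 to 0.03 on the other arrays. Without ESC 1, Col4a2 was 0.61 higher in ViPSC than in ESC (adjusted p = 0.0478) and Col4a1 0.64 higher (adjusted p = 0.0904). Without TiPSC 3, ViPSC minus TiPSC was 0.92 for Col4a1 and 0.62 for Col4a2. The parts of these markers and of chromosome 8 in the collagen values were not tested.

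**Figure D4:**
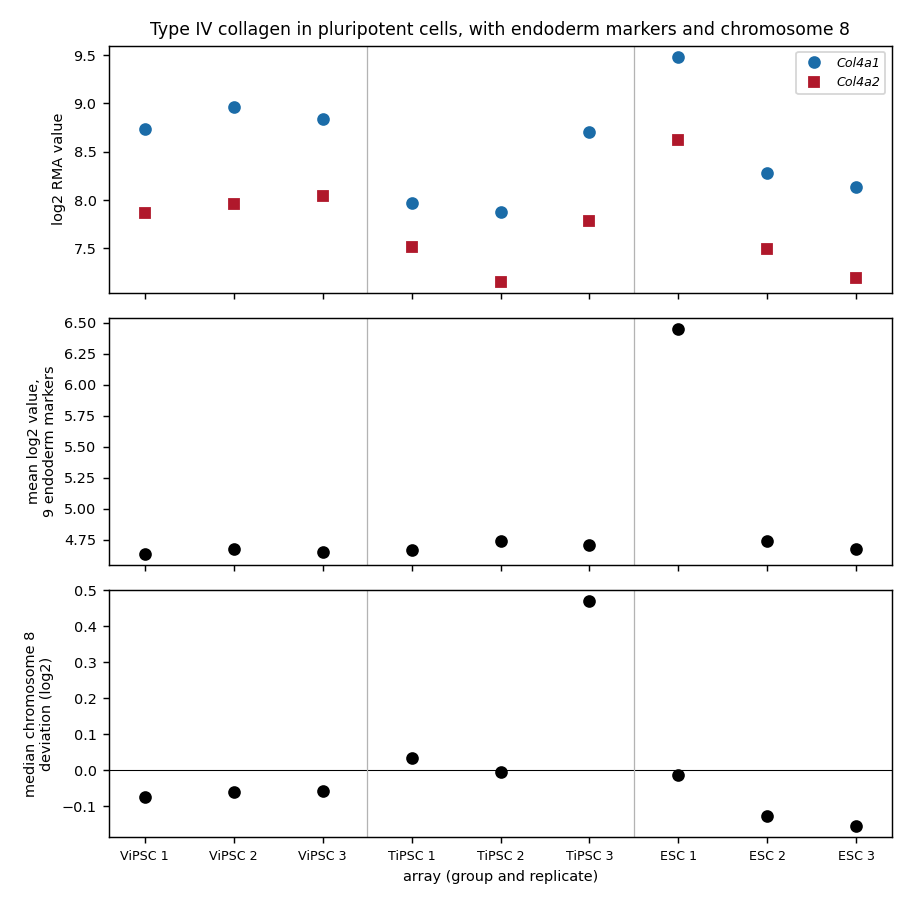
Log2 values of Col4a1 and Col4a2 (top), mean log2 value of 9 extraembryonic endoderm markers (middle) and median deviation of expressed chromosome 8 genes from their mean over the 9 arrays (bottom), on each pluripotent array. ESC 1 leads in the top and middle panels, and TiPSC 3 stands apart at the bottom with 0.47.

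Col2a1 and Col9a2, chains known from cartilage, lay mostly below the array median and varied within ESC. Col2a1, the chain of cartilage fibrils, had 4.82, 4.82 and 5.03 in ViPSC, 5.11, 5.10 and 5.11 in TiPSC and 4.87, 6.14 and 5.38 in ESC, against 4.26 in VM and 4.04 in TTF. Col9a2, a type IX chain singled out after its values were seen, had 4.37, 4.33 and 4.83 in ViPSC, 4.42, 4.37 and 4.30 in TiPSC and 4.30, 5.30 and 5.57 in ESC. The other type IX chains did not share this, with 3.98, 4.09 and 4.02 in ESC for Col9a1 and 5.40, 5.12 and 4.96 for Col9a3. ESC 2 and ESC 3 were the highest pluripotent arrays for Col2a1 and Col9a2, and they also differed from the other 7 in the X chromosome, whose expressed genes were on the median 0.59 above their 9-array mean, against -0.21 to -0.08. Neither gene passed the test (adjusted p = 0.241 to 0.831). Without ESC 1, both were lower in ViPSC than in ESC (-0.87 with adjusted p = 0.0164 for Col2a1 and -0.92 with adjusted p = 0.00535 for Col9a2) and lower in TiPSC than in ESC (-0.66 and -1.07). The 8 cartilage markers had means of 4.33 to 4.55 on all 11 arrays, and 7 of the 8 were below the array median on each.

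The members with the highest mean in the remaining classes were then compared among the pluripotent groups. Col18a1 averaged 10.36 ± 0.02 on the ViPSC arrays, 10.40 ± 0.17 on those of TiPSC and 10.52 ± 0.14 on those of ESC (SD, n = 3). Col16a1 averaged 6.65 ± 0.13, 6.71 ± 0.12 and 6.79 ± 0.16 in these 3 groups, and Col25a1, a transmembrane collagen of neurons, 5.28 ± 0.11, 5.53 ± 0.10 and 5.51 ± 0.24. Their differences were between -0.26 and 0.02, with standard errors of 0.11 to 0.13, and did not pass the test. Col7a1 had 5.36, 5.70 and 5.46 in ViPSC, 6.03, 5.70 and 6.33 in TiPSC and 5.82, 5.64 and 5.26 in ESC. Its groups overlapped or touched, and it did not pass either (ViPSC minus TiPSC -0.51 ± 0.19, adjusted p = 0.153). Col26a1, the only member of its class here, had 4.51, 4.47 and 4.47 in ViPSC, 4.31, 4.15 and 3.94 in TiPSC and 4.60, 4.56 and 4.47 in ESC. With this probe set TiPSC was below both other groups (ViPSC minus TiPSC 0.35 ± 0.10, adjusted p = 0.0782, and 0.38 with adjusted p = 0.0435 once the chromosome shift was removed). All these values were below the array median. The other Col26a1 probe set gave -0.06 for ViPSC minus TiPSC and -0.0021 for TiPSC minus ESC, so it did not show TiPSC lower.

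Collagen chains depend on enzymes that modify, cut and join them. The untested counts of these lists stand beside the shares of all genes at least 2 log2 units apart. In TiPSC minus TTF 6.01% were lower and 4.51% higher, in ViPSC minus VM 6.76% and 6.44%, and in VM minus TTF 4.62% and 4.68%. Of 16 genes for hydroxylation, glycosylation and folding of the chains, 9 were at least 2 log2 units lower in TiPSC than in TTF, with a list median of -2.44, and 2 were lower in ViPSC than in VM, with a list median of -0.37. Serpinh1, the collagen chaperone HSP47, was lower in both, at 8.93 ± 0.53 in TiPSC against 13.42 in TTF (-4.49), and at 8.23 ± 0.05 in ViPSC against 12.33 in VM (-4.11). The other gene lower in ViPSC was P3h2, a prolyl 3-hydroxylase, at 3.83 ± 0.08 against 6.58 in VM. Plod2, a lysyl hydroxylase, differed by 1.76 in ViPSC minus VM. In TiPSC minus TTF, P3h3 (-4.94) and P3h4 (-3.95), of the prolyl 3-hydroxylase family, had the largest differences beside Serpinh1. In VM against TTF 7 of 16 were lower, the largest differences being -3.75 for P4ha2, -3.74 for P3h3 and -3.22 for Plod2.

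Between ViPSC and TiPSC 2 of the 16 passed the limma test, against 5.63% of all genes. P4ha2, a catalytic subunit of prolyl 4-hydroxylase, was higher in ViPSC, at 8.54, 8.51 and 8.51 in ViPSC against 8.10, 7.76 and 7.85 in TiPSC (0.61 ± 0.11, adjusted p = 0.0143). Colgalt1, which adds galactose to hydroxylysine, was lower in ViPSC, at 9.42, 9.43 and 9.38 in ViPSC against 9.82, 9.81 and 10.07 in TiPSC (-0.49 ± 0.10, adjusted p = 0.0219). For both genes the ViPSC and TiPSC arrays did not overlap. P4ha2 lies on chromosome 11 and Colgalt1 on chromosome 8, whose expressed genes differed on the median by 0.44 and -0.23 in ViPSC minus TiPSC. With the chromosome shift removed neither passed, with 0.17 for P4ha2 (adjusted p = 0.367) and -0.26 for Colgalt1 (adjusted p = 0.153). In both comparisons with ESC 0 of 16 passed.

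All 4 cross-linking enzymes measured were lower in TiPSC than in TTF and lower in VM than in TTF by at least 2 log2 units, whereas 0 of 4 were lower in ViPSC than in VM. Lox, lysyl oxidase, had 9.35, 9.16 and 8.93 in TiPSC, against 14.32 in TTF (-5.17), and 8.61, 8.70 and 8.67 in ViPSC, against 7.96 in VM (0.70). In ViPSC minus VM, Loxl3 differed by 1.46 and Loxl1 by -1.36. Loxl1 differed by -5.52, Loxl3 by -3.90 and Loxl4 by -3.24 in TiPSC minus TTF. In VM minus TTF the differences were -6.36 for Lox, -5.50 for Loxl3, -4.34 for Loxl1 and -3.65 for Loxl4. None of the 4 passed among the pluripotent groups.

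Of 8 genes for secretion and processing of procollagen, 2 were lower in TiPSC than in TTF: Bmp1, the C-proteinase (-4.0), and Pcolce, its enhancer (-3.50). Bmp1 was lower in ViPSC than in VM (-2.82), where Adamts3, an N-proteinase, differed by -2.05, short of the margin on ViPSC 2, and Pcolce in VM than in TTF (-3.55). Pcolce2, a second enhancer, passed the limma test between ViPSC and ESC, with 7.63, 7.64 and 7.60 in ViPSC against 8.34, 9.90 and 9.83 in ESC (-1.74 ± 0.35, adjusted p = 0.0442). Among 10 collagen-degrading enzymes and inhibitors, 7 were lower in TiPSC than in TTF, led by Ctsk (-5.91), Mmp13 (-4.83) and Mmp14 (-4.67), and 4 in ViPSC than in VM, led by Mmp2 (-2.88), Ctsk (-2.75) and Mmp14 (-2.62). In VM against TTF 5 of 10 were lower, led by Mmp13, a collagenase (-7.24), Ctsk (-3.41) and Mmp14 (-2.96). Mmp14, a membrane-bound collagenase, was the 1 of the 10 that passed between pluripotent groups, with 7.05, 6.98 and 7.08 in ViPSC against 8.05, 7.70 and 8.11 in TiPSC (-0.92 ± 0.22, adjusted p = 0.043).

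Of 6 collagen receptor genes, Itga1, an integrin chain that binds type IV collagen, was lower in ViPSC than in VM, at 5.23, 5.24 and 5.27 against 8.60 (-3.36), and higher in VM than in TTF (2.67). Ddr2, a receptor kinase for fibrillar collagen, was lower in TiPSC than in TTF, at 5.37 ± 0.09 against 10.98 (-5.61), and lower in VM than in TTF (-4.61). Itga1 was thus highest in VM and Ddr2 in TTF. Itgb1, the common beta chain of the collagen-binding integrins, differed by -2.37 in TiPSC minus TTF, short of the margin on TiPSC 3, and by -1.39 in VM minus TTF. None of the 6 passed among pluripotent groups.

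The other basement membrane genes did not share one direction with type IV collagen. Of 14 genes, 4 were higher (Lama1, Lama3, Lama5 and Agrn) and 4 lower (Lama2, Lama4, Lamb2 and Nid1) in TiPSC than in TTF. In ViPSC against VM 2 were higher (Lama1 and Lama3) and 3 lower (Lama2, Lama4 and Lamb2). Lama1, the laminin chain of the early embryo, had 8.42, 8.34 and 8.13 in ViPSC, against 3.88 in VM (4.42), and 8.53, 8.53 and 7.89 in TiPSC, against 4.98 in TTF (3.34). Lama4, a laminin chain of vessels and muscle, differed by -5.93 in ViPSC minus VM and by -4.99 in TiPSC minus TTF, and Lama2, a laminin chain of muscle, by -5.05 and -3.20. In VM against TTF 1 of 14, Agrn, was higher (2.44). Pluripotent cells thus had more of the Lama1 transcript and less of Col4a1, Col4a2 and Lama4 than either source array.

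In the tested comparisons 3 of the 14 passed between ViPSC and TiPSC, against 5.63% of all genes. Agrn, a heparan sulfate proteoglycan, was lower in ViPSC, at 8.90, 9.01 and 8.93 against 9.93, 9.94 and 9.74 in TiPSC (-0.92 ± 0.17, limma adjusted p = 0.0163). Lama3, a laminin chain of epithelia, was higher in ViPSC, at 7.92, 8.14 and 8.10 against 6.49, 6.58 and 6.16 in TiPSC (1.65 ± 0.39, adjusted p = 0.0421). Lamc1, the common gamma chain of laminins, was lower in ViPSC than in TiPSC (-0.48 ± 0.09, adjusted p = 0.0231) and than in ESC (-0.44 ± 0.09, adjusted p = 0.0499). None passed between TiPSC and ESC.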

How the data were processed

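RNA from 11 samples was measured on Affymetrix mouse arrays. The deposited values of 45101 probe sets are log2 expression values that the authors made with RMA, per the submitters' processing notes. The RMA version and probe annotation are not given in the sources used here. After 64 control probe sets, 932 with several symbols and 9160 without one were left out, 34945 remained. Symbols came from the platform annotation.

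Groups followed the sample titles. Replicated groups were compared with limma 3.58.1 in R 4.3.3 (1 mean per group, lmFit and eBayes, 9 arrays, two-sided), with Benjamini-Hochberg adjustment over 18193 genes and a threshold of 0.05. The fit was tested on simulated data. VM and TTF, with 1 array each, were compared without a test, and a gene counted as different at 2 log2 units or more on every array. Chromosome shifts are medians over genes with a mean of at least 7. Promoter windows were searched with Python 3.11.15.

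The collagen genes and the gene lists (192 entries, 177 measured) were chosen with earlier results of these data known. Named with values were the collagen genes called, the 8 largest differences per direction in each untested comparison, the top member of each class by mean, their partner chains, and in each other list the genes called and the 3 largest untested differences. The labels give the replicate groups the same numbers. Deviations of same-numbered arrays correlated at -0.125 to 0.118, so the numbers were not treated as pairs.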

Additional observations from a re-analysis of the deposited data

Results flagged for a closer look

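The probe sets used for Col5a3 and Col8a1 had opposite signs in the comparisons of induced with source cells, on every array. Col5a3 differed by 0.34 in ViPSC minus VM and by -4.65 in TiPSC minus TTF. Col8a1 differed by 1.21 in ViPSC minus VM and by -2.86 in TiPSC minus TTF. An unused probe set of each gave 1 sign in both, with -0.57 and -0.17 for Col5a3 and -0.41 and -1.94 for Col8a1, and the ViPSC and VM values of Col5a3 were below the array median. VM and TTF have 1 array each, and the difference between the comparisons was not tested.

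Probe sets that were not used for their gene reached the margin of 2 log2 units where the one used did not. For Col9a1, a type IX chain, the unused probe set had 3.33, 3.42 and 3.42 in ViPSC, against 6.41 in VM, and 3.33 in TTF, so that ViPSC minus VM was -3.02 and VM minus TTF was 3.08, whereas the probe set used gave -0.57 and 0.23. An unused probe set of Col5a1 gave -2.19 in ViPSC minus VM, where the one used gave -1.64 and the third gave -0.98. The unused probe set of Col3a1 gave -3.88 in VM minus TTF, where the one used gave -1.26. For Col5a1 and Col3a1 the probe sets named here had the same sign.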

How the results depend on the processing

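Of 663 recomputed differences of single genes, 625 kept their direction and their side of the threshold, 12 lost and 17 gained a call, and 9 changed sign. The calls among pluripotent groups depended on the arrays: leaving out 1 array at a time gave 207 to 1994 genes called in ViPSC minus TiPSC (1024 with all arrays), 22 to 2519 in ViPSC minus ESC (390) and 12 to 3038 in TiPSC minus ESC (115), and 0 to 1, 0 to 4 and 0 to 8 collagen genes. Fitting only the 6 arrays compared gave 2621, 73 and 1 genes and 2, 0 and 0 collagen genes in that order. The fit with the replicate number as a block gave 623, 103 and 9 genes and 0 collagen genes in each. In ViPSC minus TiPSC, Col1a1 passed with low genes left out or the array median removed (1 collagen gene each), and Col1a1 and Col26a1 with the chromosome shift removed (2). The group means of both genes were under 7, the lower limit for the genes that set the shifts. With that shift removed Col4a6 passed in ViPSC minus ESC (1) and Col4a6 and Col5a2 in TiPSC minus ESC (2). Before that, Col4a6 differed by 0.10 in both (limma adjusted p = 0.742 and 0.732). The X chromosome shifts subtracted were -0.55 and -0.48, taken from genes with a mean of at least 7. Col4a6 was below the array median on every array, so its calls rest on the value subtracted. In TiPSC minus ESC 0 collagen genes passed with the mean of all probe sets (65 genes called), the replicate block or limma's trend, where Col5a2 had adjusted p = 0.0906, 0.0737 and 0.0523. Of the listed genes outside the collagens that passed, P4ha2, Colgalt1 and Cd68 in ViPSC minus TiPSC no longer did with the chromosome shift removed (adjusted p = 0.367, 0.153 and 0.111), and all but Cldn5 in ViPSC minus TiPSC were lost in 3 to 8 of the 9 fits without 1 array. Differences near zero turned: Col1a1 in ViPSC minus ESC was -0.27 with the chromosome shift removed. With single arrays left out it ranged over -0.0101 to 0.229, Col3a1 over -0.036 to 0.315, Col6a1 over -0.0277 to 0.443, Col6a2 over -0.0609 to 0.198, Col4a1 over -0.0329 to 0.642 and Col4a2 over -0.101 to 0.611. Col9a2 in ViPSC minus TiPSC ranged over -0.0116 to 0.238 and Col4a2 in TiPSC minus ESC over -0.576 to 0.136.

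With a margin of 1 log2 unit, 5555, 4807 and 4413 genes differed in ViPSC minus VM, TiPSC minus TTF and VM minus TTF, with 1, 2 and 5 collagen genes higher. With 3 units, 1099, 893 and 852 genes differed, and in VM minus TTF 0 collagen genes were higher and 8 lower. With low genes left out, 918 genes differed in VM minus TTF and 0 collagen genes were higher. The 11 and 17 collagen genes lower in ViPSC and TiPSC than in their source cells stayed at 11 and 17 when any induced array was left out. The cause of these changes was not tested. Signal over background was not available beyond the array median, which 20 of the 42 collagen genes did not reach on any array with the probe sets used.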

Other observations

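Markers of other cell types differed among pluripotent arrays as well. Of all genes, 5.63% passed the limma threshold in ViPSC minus TiPSC, 2.14% in ViPSC minus ESC and 0.632% in TiPSC minus ESC. Of 8 endothelial markers, Pecam1 (1.33) and Cldn5 (1.03 ± 0.13 SE) were higher in ViPSC than in TiPSC, and Cldn5 was higher in ViPSC than in ESC (1.08), each past the limma threshold, while Cdh5, a defining gene of endothelium, averaged 3.81 ± 0.04 (ViPSC), 3.73 ± 0.07 (TiPSC) and 3.73 ± 0.14 (ESC; SD, n = 3) and was at 11.61 in VM. Of 5 blood and macrophage markers, Cd68 (1.37 ± 0.27 SE) and Csf1r (1.54) were higher in ViPSC than in TiPSC, though Cd68, on chromosome 11, did not pass with the chromosome shift removed (0.93, adjusted p = 0.111), and Ptprc, which marks all white blood cells, was at 3.69 ± 0.11, 3.58 ± 0.16 and 3.52 ± 0.11 in ViPSC, TiPSC and ESC. Amn, of 9 extraembryonic endoderm markers, was lower in ViPSC (-1.20) and in TiPSC (-1.25) than in ESC, and Acan, of 8 cartilage markers, was higher in ViPSC than in TiPSC (0.36). None of 9 cardiac muscle, 5 smooth muscle, 3 bone, 4 keratinocyte, 2 Schwann cell and 6 pluripotency markers passed in any of the 3 comparisons.

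In VM against TTF, all 9 cardiac and all 8 endothelial markers were higher by at least 2 log2 units, 13 of 18 fibroblast markers were lower, and Gata6, Sox17 and Sox7 of the extraembryonic endoderm list were higher, genes that heart and vessels also express. Of the smooth muscle markers Tagln and Cnn1 were lower, and of the blood markers Lyz2. The bone, keratinocyte and Schwann cell markers were below the array median on all 11 arrays.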
